A study of Homo sapiens with 6 samples.

Results

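Kinesins are motor proteins that use ATP to move along microtubules or to take them apart. In the human genome their genes carry the symbols KIF and KIFC, and the 42 kinesin genes described here are all those among the 17687 genes compared whose symbol in the platform annotation is KIF with a number and an optional letter A to C, or KIFC1 to KIFC3. Membership follows from the symbol, with no threshold on a measured value. They were sorted by textbook role into 15 mitotic kinesins, which build the spindle, move chromosomes and complete cell division, 14 transport kinesins, which carry vesicles, organelles and protein complexes, and 13 ciliary and other kinesins. These roles, and the partner lists used below, were chosen with earlier results of these data known. CENPE, a kinetochore kinesin whose symbol does not follow the pattern, is given among the partners.

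RNA came from A375, an established human melanoma cell line, taken 3 days after a small interfering RNA (siRNA) was introduced. One group received an siRNA against ERK3 (siERK3, 3 arrays) and the other a negative control siRNA (siCon, 3 arrays), and both were delivered with the same transfection reagent. ERK3, the product of MAPK6, belongs to the atypical branch of the MAP kinases, and the comparison asks which transcripts differ after its knockdown. The labels give 1 cell line and name no second siRNA, and they do not say whether the arrays of a group came from separate cultures, so the p-values reflect no more than array-to-array spread, which may be technical.

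Each value is a log2 signal of 1 probe set on 1 Affymetrix Clariom S array, and because the zero point and stretch of the deposited scale are unknown, differences are given in its units. Array medians lay between 7.06 and 7.10. A gene is called above background on an array when it exceeds the 95th percentile of the 612 negative-control probe sets there, a level between 7.32 and 7.56. MAPK6 was 13.45, 13.55 and 13.62 on the siCon arrays and 10.54, 10.32 and 10.67 on the siERK3 arrays, a difference of -3.03 on the log2 scale with an SE of 0.14 (limma, adjusted p = 0.000133). The first principal component of all genes (32.5% of variance) separated the groups, siCon at 16.2 to 22.6 and siERK3 at -20 to -16.5. On the second (23.9%), siCon 2 (-26.5) and siERK3 3 (-15.2) lay on the side opposite to the remaining 4 (4.35 to 21.7). The arrays siCon 2 and siERK3 3 are called below the arrays that stood apart, although siCon 1 (21.7) was larger in size than siERK3 3. Of the melanocyte lineage markers, SOX10, MITF, EDNRB and S100B lay above background on all 6 arrays, while PMEL, MLANA, TYR, TYRP1 and PAX3 lay below it on all 6.

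Most mitotic kinesins are made in late S, G2 and M phase. The promoters of many are textbook targets of the DREAM and MMB-FOXM1 complexes. These complexes bind the cell cycle homology region (CHR) and often act beside a CCAAT box. Transport kinesins are made through the whole cell cycle, and several are most abundant in neurons. RefSeq promoter windows of 300 bases (build GRCh38.p14, 250 bases before to 50 after each start site) were found for 34 of the 42 kinesins, including all 15 mitotic ones, and were searched on both strands. The CHR letters TTTGAA or TTCGAA occurred in a window of 11 of 15 mitotic kinesins (73.3%), 1 of 10 transport kinesins (10.0%) and 1 of 9 others (11.1%), against 17.5% of the 14250 compared genes with a window. CCAAT occurred in 73.3%, 40.0% and 33.3% of the same classes, against 42.3% of the compared genes. Both occurred in 10 mitotic kinesins, 1 transport kinesin (KIF5B) and 1 other (KIF24), or 66.7%, 10.0% and 11.1%, against 7.3%. The letters GCGCC, part of E2F-type sites, were common everywhere, in 80.0%, 90.0% and 77.8% of the classes and 68.9% of the compared genes. These are matches of letters, not measured binding. The CHR and CCAAT letters can share at most 1 base, and GCGCC and CCAAT at most 2.

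Stretches of 120 bases, from 110 bases before the start site, are shown for the mitotic kinesins with positive changes above background (KIF11 and KIF20A) and for a pair with negative changes (KIF4A and KIF23). They lie on the plus strand at chr10:92593020-92593139 for KIF11, chrX:70289994-70290113 for KIF4A, chr15:69414239-69414358 for KIF23 and chr5:138179002-138179121 for KIF20A, and capitals mark CHR and CCAAT letters on either strand (TTCAAA and ATTGG are the reverse-strand forms).
KIF11: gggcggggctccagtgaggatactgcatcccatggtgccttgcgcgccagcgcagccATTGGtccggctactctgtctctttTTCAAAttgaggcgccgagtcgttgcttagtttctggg
KIF4A: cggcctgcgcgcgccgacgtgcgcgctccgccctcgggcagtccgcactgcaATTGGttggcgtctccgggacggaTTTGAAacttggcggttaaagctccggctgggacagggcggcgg
KIF23: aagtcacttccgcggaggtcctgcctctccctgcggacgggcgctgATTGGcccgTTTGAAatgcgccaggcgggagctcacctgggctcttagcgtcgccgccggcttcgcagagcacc
KIF20A: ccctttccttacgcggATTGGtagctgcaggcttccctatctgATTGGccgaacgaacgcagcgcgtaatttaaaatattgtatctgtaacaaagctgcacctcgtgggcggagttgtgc
In KIF11 and KIF4A the CCAAT letters begin 53 and 58 bases before the start site and the CHR letters 28 and 34 bases before it. In KIF23 the CCAAT letters begin 64 and the CHR letters 55 bases before it. The KIF20A window holds the CCAAT letters at 94 and 67 bases before its start site and neither TTTGAA nor TTCGAA. Other forms of the CHR were not searched in this or any other window. The spacing is similar in KIF11 and KIF4A, but their CHR letters lie on opposite strands. Not all mitotic kinesins with negative changes resemble KIF4A and KIF23. The KIF15 window holds CHR letters without CCAAT letters, and the windows of KIF2A and KIF2C hold neither.

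After Benjamini-Hochberg adjustment of limma's p-values over all genes, none of the 42 kinesins passed the threshold of 0.05, where 0.956% of all genes passed (0.447% higher and 0.509% lower in siERK3). The smallest adjusted p of a kinesin was 0.115, that of KIF9. At an unadjusted p under 0.05 there were 6 kinesins (14.3%), 4 higher and 2 lower, a share close to the 13.5% of all genes. Of all genes 6.98% were higher and 6.5% lower at that level. The 3 siERK3 values lay clear above the 3 siCon values for 4 kinesins and clear below them for 8, against 10.1% and 9.7% of all genes (19.8% in either direction). Kinesins above background on at least 3 of 6 arrays numbered 25, namely 13 mitotic, 10 transport and 2 others. For these 25, the separate 95% intervals of the change reached from -1.02 (KIF21A) to 0.75 (KIF1C). The intervals are not adjusted for the number of genes and set no joint bound. Like the p-values, they reflect no more than array-to-array spread.

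The absence of calls depended on the fit. With a filter at the 30th percentile of mean level 0 kinesins passed, where 2.95% of the genes kept passed. With a filter that kept the 8843 genes above the median of mean level, KIF9, KIF20A and KIF21A passed (adjusted p 0.0246, 0.0321 and 0.0464 in limma), where 6.57% of the genes kept passed. The call of KIF9 there supports nothing, because its siCon mean of 6.95 lay under the filter level of 7.02 and it was kept through its siERK3 mean of 7.50. With a mean-variance trend and robust moderation, KIF20A and KIF21A passed (0.0252 and 0.0381), where 4.08% of all genes passed. Over all alternatives the adjusted p ranged from 0.0252 to 0.376 for KIF20A, 0.0381 to 0.384 for KIF21A and 0.0246 to 0.325 for KIF9. No kinesin passed in any fit with 1 array left out.

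**Figure D1:**
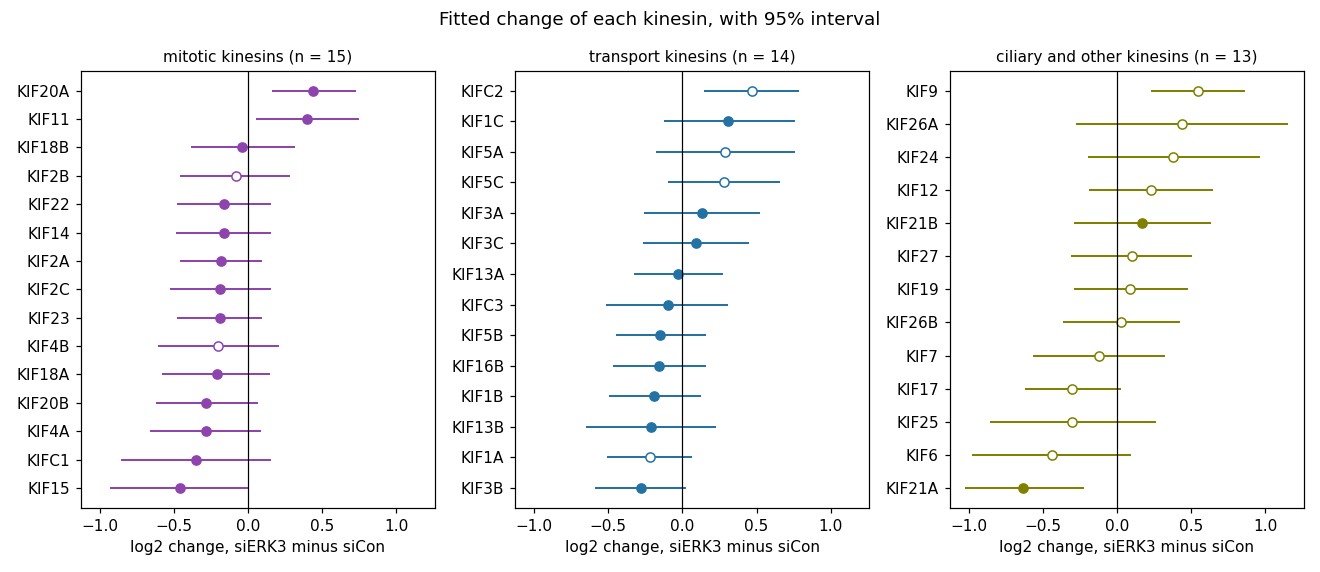
The fitted log2 change (siERK3 minus siCon, horizontal axis) of all 42 kinesins, with its 95% interval as a line, in 3 panels by role. Filled points are genes above background on at least 3 of 6 arrays and open points the others; 13 of 15 mitotic kinesins lie left of 0, with KIF20A and KIF11 at the top right, and transport kinesins lie on both sides.

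Most mitotic kinesins had slightly lower signal in siERK3, and KIF20A and KIF11 had higher signal. The log2 change was below 0 for 13 of the 15 (86.7%), against 50.2% of all genes, and its median was -0.19, from -0.46 for KIF15 to 0.44 for KIF20A, against a median of -0.00 over all genes. None passed over all genes, while 2 had higher and 1 lower signal with an unadjusted p under 0.05. The count of 13 was the same after quantile normalization, subtraction of array medians and cyclic loess, and was 11 without siERK3 3. KIF2B and KIF4B lay below background on all 6 arrays, and among the 13 mitotic kinesins above it 11 were lower, against 50.1% of genes above background on at least 3 arrays.

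KIF20A, which carries the chromosomal passenger complex to the central spindle in anaphase, was 10.93, 10.85 and 10.85 in siCon and 11.32, 11.30 and 11.33 in siERK3. All 3 siERK3 arrays lay above all 3 siCon arrays, and the SD within a group was 0.05 and 0.02. The log2 change was 0.44 (SE 0.12, 95% interval 0.17 to 0.72, adjusted p = 0.151 in limma), and 0.43 to 0.47 with any 1 array left out. KIF11, also called Eg5, the tetrameric motor that pushes spindle poles apart, was 11.07, 10.83 and 11.11 in siCon and 11.59, 11.28 and 11.33 in siERK3. Its groups did not overlap either, with a log2 change of 0.40 (SE 0.15, 0.06 to 0.74, adjusted p = 0.289), and siERK3 1 was the highest array.

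KIF15, which can hold the spindle bipolar beside KIF11, was 8.94, 8.50 and 8.74 in siCon and 8.39, 8.54 and 7.88 in siERK3. The groups overlapped at siCon 2 and siERK3 2, and siERK3 3 was the lowest array. Its log2 change was -0.46 (SE 0.20; limma, adjusted p = 0.368), and -0.26 without siERK3 3. The 2 motors of spindle bipolarity thus had changes of opposite sign, with 95% intervals that did not overlap, but neither passed the test and the difference between them was not tested. KIFC1, a minus-end motor that focuses poles and clusters extra centrosomes, was 10.23, 9.93 and 9.82 in siCon and 9.95, 9.82 and 9.16 in siERK3. Again siERK3 3 was lowest, and the log2 change of -0.35 (SE 0.22, adjusted p = 0.555) was -0.11 without that array.

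The other kinesins of the central spindle and the cleavage site had slightly lower signal in siERK3, and none passed the test. KIF4A, the chromokinesin that works with PRC1 to set the length of the midzone, was 9.86, 9.86 and 9.87 in siCon and 9.68, 9.28 and 9.79 in siERK3, a log2 change of -0.28 with an SE of 0.16 (limma, adjusted p = 0.505). Its siCon values were nearly equal and all 3 siERK3 values lay below them, with siERK3 2 the lowest, and the change was -0.13 without that array. KIF20B, a relative of KIF20A that acts in cytokinesis, was 12.10, 12.26 and 12.22 in siCon and 12.05, 12.02 and 11.68 in siERK3. The groups did not overlap and the log2 change was -0.28 (SE 0.15, adjusted p = 0.478), opposite in sign to that of KIF20A, and -0.16 without siERK3 3. KIF23, the motor of centralspindlin, ran from 12.67 to 12.74 in siCon and from 12.44 to 12.57 in siERK3, without overlap, with a log2 change of -0.19 (SE 0.12, -0.47 to 0.09). KIF14, which recruits citron kinase to the midbody, overlapped between groups, with a log2 change of -0.16 (SE 0.14).

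Among the kinesins that shorten microtubules or align chromosomes, KIF2A showed the tightest values of the family. KIF2A, a depolymerase of spindle poles that also acts in neurons, was 11.01, 11.03 and 11.00 in siCon and 10.84, 10.82 and 10.83 in siERK3. The groups were clearly separate, and the log2 change was -0.18 (SE 0.12, -0.45 to 0.09, adjusted p = 0.585 in limma), since limma's moderation widens an SD of 0.01. Without moderation its adjusted p was 0.0603, the smallest of a range that reached 0.733 over the alternatives. KIF2C, the centromeric depolymerase MCAK, KIF18A, which damps chromosome oscillation, and KIF22, which pushes on chromosome arms, had log2 changes of -0.19, -0.21 and -0.16 (SE 0.15, 0.16 and 0.14), all with overlapping groups. KIF18B, which acts on astral microtubules, was at -0.04 (SE 0.15). Its sign turned to 0.07 without siCon 3 and 0.01 without siERK3 3. KIF4B, an intronless near-copy of KIF4A whose probe sets could share signal with it, lay between 3.45 and 4.10, and KIF2B between 4.63 and 5.06, both below background.

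**Figure D2:**
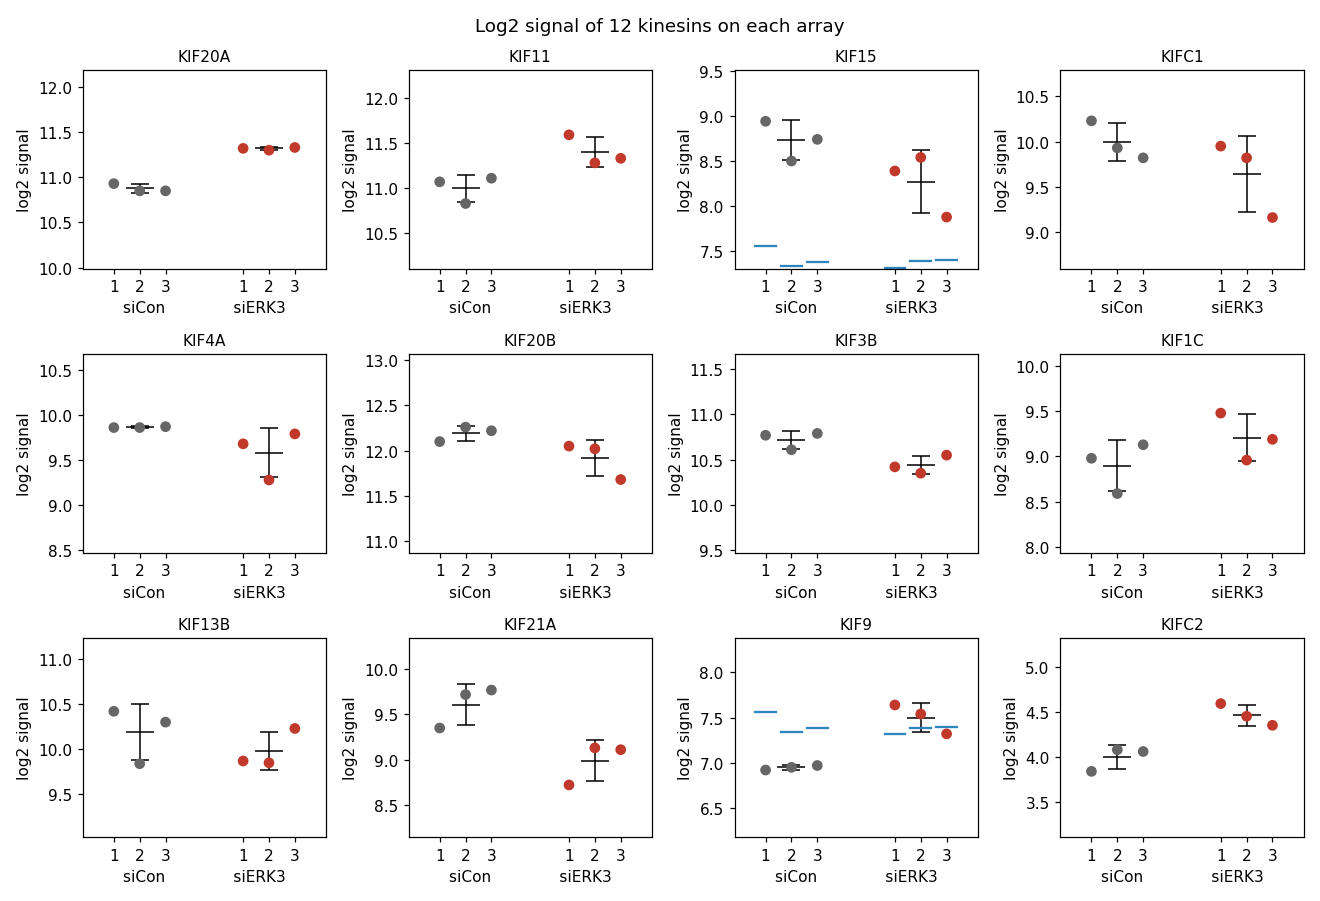
Log2 signal (vertical axis, 1 scale length for all panels) of 12 kinesins on siCon 1 to 3 (grey) and siERK3 1 to 3 (red), with the group mean and SD in black and, where in range, the array's background level as a blue bar. KIF20A and KIF11 are higher on all 3 siERK3 arrays, KIF4A, KIF20B, KIF3B and KIF21A lower on all 3, and siERK3 3 is the lowest array for KIF15, KIFC1 and KIF20B.

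The genes listed as partners of mitotic kinesins also had mostly lower signal. The list holds proteins that work with these kinesins, the proliferation genes MKI67 and TOP2A, and the regulators FOXM1, MYBL2, LIN9 and LIN54. Of 35 measured partners, 0 passed limma's test over all genes, 28 had a log2 change below 0 (80.0%, against 50.2% of all genes), and the median was -0.18. At an unadjusted p under 0.05, 9 were lower and 0 higher, against 6.5% and 6.98% of all genes. Of the 8384 genes above background on at least 3 arrays, 751 were lower and 760 higher at that level. NUF2, a subunit of the NDC80 complex that binds microtubules, had the smallest p and was at -0.65 on the log2 scale (SE 0.14, adjusted p = 0.0796) and CENPF, a kinetochore and nuclear matrix protein, at -0.45 (SE 0.14, adjusted p = 0.213). NUF2 passed with either filter on mean level and with the mean-variance trend (adjusted p 0.0410, 0.0151 and 0.00309 in limma), and CENPF with the trend (0.0152). CENPE was at -0.25 (SE 0.13, adjusted p = 0.468). Of the 34 partners above background on at least 3 arrays, 14 lay clear below siCon and 1, PLK1, clear above. Of all 8384 such genes, 1221 lay clear below and 1206 clear above. PLK1 was at 0.13 (SE 0.12, adjusted p = 0.707 in limma), the same sign as KIF20A.

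Around KIF20A, its passenger-complex cargo went the other way in sign. BIRC5, AURKB and CDCA8 had log2 changes of -0.57, -0.36 and -0.33 (SE 0.15, 0.14 and 0.13), each with no overlap between groups, and INCENP of -0.07 (SE 0.15). None of the 4 passed over all genes, and BIRC5 passed with the filter at the median level and with the trend (adjusted p 0.0344 and 0.0495 in limma). Around KIF23, RACGAP1, the other subunit of centralspindlin, was at -0.30 (SE 0.12) and ECT2, the exchange factor it recruits, at -0.16 (SE 0.23). PRC1, the microtubule bundler that binds KIF4A and KIF14, was at 0.13 (SE 0.13). TPX2 and AURKA, which act with KIF11 and KIF15 on the spindle, were at -0.18 and -0.26 (SE 0.16 and 0.14). The regulators of this gene programme, LIN54 included, are part of the partner counts above. FOXM1 was at 0.10, MYBL2 at 0.18 and LIN9 at 0.21 (SE 0.14, 0.14 and 0.16), all with overlapping groups. LIN54 lay above background on all 3 siCon arrays and on 0 siERK3 arrays, so that a bound is given, at least 1.15-fold lower in siERK3 if the scale is a plain log2 (adjusted p = 0.312 in limma).

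**Figure D3:**
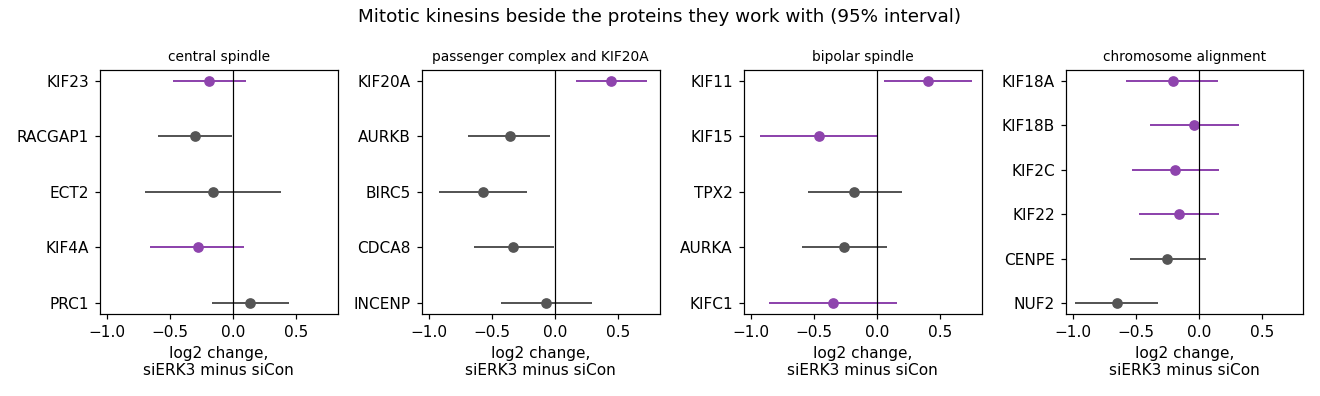
Fitted log2 change (siERK3 minus siCon, horizontal axis) with its 95% interval for mitotic kinesins (purple) beside partner proteins (grey), grouped by the structure they serve. KIF20A at 0.44 lies opposite to AURKB, BIRC5 and CDCA8, and KIF11 at 0.40 opposite to KIF15 at -0.46, while none passed the test over all genes.

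Transport kinesins had small changes of both signs. Of 14, 8 were lower (57.1%, against 50.2% of all genes) and 6 higher. The median log2 change was -0.06, with a range from -0.28 for KIF3B to 0.47. Of the 10 above background on at least 3 of 6 arrays, 7 were lower (70.0%, against 50.1% of all such genes). The median of these 10 was -0.12. None of the 14 passed over all genes, and 1, KIFC2, had an unadjusted p under 0.05 while lying below background (7.14%, against 13.5% of all genes).

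Of the kinesin-1 heavy chains, KIF5B, the form found in most tissues, was 14.13, 13.97 and 14.00 in siCon and 13.87, 13.82 and 13.98 in siERK3. The groups overlapped narrowly and the log2 change was -0.15 (SE 0.13, 95% interval -0.44 to 0.15). The neuronal forms KIF5A and KIF5C lay below background on all arrays, at 5.61 to 6.44 and 6.43 to 6.99, and the KIF5C probe set is annotated with a non-coding transcript only. The light chains KLC1 and KLC2, which link kinesin-1 to cargo, had log2 changes of -0.09 (SE 0.13) and -0.35 (SE 0.20), and KLC3 and KLC4 lay below background.

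The kinesin-2 motor, which drives transport into cilia and of endosomes, is built of KIF3A with KIF3B or KIF3C and of the accessory subunit KIFAP3. KIF3B was 10.77, 10.61 and 10.79 in siCon and 10.42, 10.35 and 10.55 in siERK3, with no overlap and a log2 change of -0.28 (SE 0.13, -0.58 to 0.02, adjusted p = 0.410 in limma). Its partners overlapped between groups: KIF3A was at 0.13 (SE 0.17), KIF3C at 0.09 (SE 0.16) and KIFAP3 at -0.05 (SE 0.12). Of the motor's subunits, KIF3B therefore was the one with separate groups, and whether its change differed from the others was not tested.

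Among the kinesin-3 motors of vesicles, KIF1C, which moves integrin-containing vesicles, was 8.98, 8.59 and 9.13 in siCon and 9.48, 8.96 and 9.19 in siERK3, a log2 change of 0.31 (SE 0.19, -0.12 to 0.75). The groups overlapped, with siCon 2 the lowest array, and the change was 0.15 without it. KIF1B, a carrier of mitochondria and synaptic vesicle precursors, was 9.35, 9.09 and 9.34 in siCon and 9.11, 9.01 and 9.11 in siERK3, a log2 change of -0.19 (SE 0.14). KIF16B, an early endosome motor, was 9.18, 9.27 and 9.42 in siCon and 9.07, 9.07 and 9.26 in siERK3, a log2 change of -0.16 (SE 0.14). Both overlapped between groups. KIF13B, which carries membrane cargo, was 10.42, 9.84 and 10.30 in siCon and 9.87, 9.85 and 10.23 in siERK3. Its arrays spread widely within both groups, and the log2 change of -0.21 (SE 0.19) ran from -0.38 without siCon 2 to -0.09 without siCon 1. KIF13A, known for moving endosomal cargo to melanosomes in pigment cells, differed by -0.03 (SE 0.13, -0.32 to 0.27). KIF1A, the motor of synaptic vesicle precursors, lay just below background at 7.15 to 7.20 in siCon and 6.87 to 7.00 in siERK3. Of the minus-end motors, KIFC3 was at -0.10 (SE 0.18), and KIFC2 lay below background on all arrays, at 3.84, 4.08 and 4.06 in siCon and 4.59, 4.45 and 4.35 in siERK3 (adjusted p = 0.188).

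The adaptors and light chains that tie transport kinesins to cargo showed no called member. Of 28 measured, 0 passed limma's test over all genes, 17 had a change below 0 (60.7%, against 50.2% of all genes), and the median was -0.04. An unadjusted p under 0.05 was found for 1 of them (3.57%, against 13.5% of all genes). That gene was TANC2, a scaffold that captures KIF1A vesicles, at 0.32 (SE 0.13, adjusted p = 0.348). SPAG9, the adaptor JIP4, was at -0.29 (SE 0.15, adjusted p = 0.442) and the mitochondrial adaptors TRAK1 and TRAK2 at 0.14 and -0.13 (SE 0.15 and 0.18). MAPK8IP1, the adaptor JIP1, lay below background at means of 5.63 and 6.07.

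The medians of the mitotic and the transport kinesins differed by -0.12, mitotic being lower. As a mean of all members relative to each gene's siCon mean, mitotic kinesins were at 0.06, -0.05 and -0.01 on the siCon arrays and -0.04, -0.12 and -0.23 on the siERK3 arrays. Transport kinesins were at 0.00, -0.11 and 0.10 and at 0.00, 0.03 and 0.02. The groups overlapped for both classes, for the mitotic one because siERK3 1 lay just above siCon 2. The difference between the class means was 0.06, 0.06 and -0.12 on the siCon arrays and -0.04, -0.15 and -0.25 on the siERK3 arrays, where siCon 3 lay below siERK3 1. Restricted to the 13 mitotic and 10 transport members above background on at least 3 arrays, transport kinesins were at 0.05, -0.18 and 0.12 in siCon and -0.08, -0.09 and -0.00 in siERK3. Mitotic ones were at 0.05, -0.07 and 0.02 and at -0.04, -0.11 and -0.23. The difference was then 0.04 and -0.02 on siERK3 1 and 2 and -0.23 on siERK3 3, against -0.10 to 0.11 in siCon, and lay below the siCon range on siERK3 3 alone. The difference of medians was -0.05 without siERK3 2 and -0.19 without siERK3 1. With siCon 2 and siERK3 3, the arrays that stood apart, both left out, the medians were -0.14 and -0.12 and their difference -0.02. Among members above background on at least 3 arrays the medians were -0.19 and -0.12. No test was made of the class difference, and its size depended on which arrays were included.

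How low the mitotic kinesins lay differed between siERK3 arrays. Of the 15 mitotic kinesins, 8 had their lowest siERK3 value on siERK3 3, 6 on siERK3 2 and 1 on siERK3 1, against 34.6%, 32.7% and 32.6% of all genes. Their partners were at -0.13, -0.17 and -0.24 on siERK3 1, 2 and 3, against -0.11 to 0.06 in siCon. Genes of the G1/S transition and replication were at 0.18, 0.00 and -0.23 on the same arrays, against -0.05 to 0.04 in siCon. Of these 24 genes 1 passed, the S phase cyclin gene CCNE2, at 0.76 (limma, adjusted p = 0.0422), where 0.956% of all genes passed. CCNE2 lay above background on 1 siCon array and all 3 siERK3 arrays, so its change is set partly against values below background. It passed in none of the fits with 1 array left out. Whether the share of cells in each cycle phase differed between the arrays was not tested, and fewer cycling cells and less RNA per cell cannot be told apart in bulk RNA. Leukocyte markers were at -0.15 to -0.35 in siERK3 against -0.06 to 0.10 in siCon. Of 6 measured, LYZ and CD68 lay above background, and PTPRC, CD3E, CD14 and ITGAM below it on all arrays. LYZ was at -0.85 (SE 0.20, adjusted p = 0.0965 in limma) and CD68 at -0.47 (SE 0.13, adjusted p = 0.152), and of the 6 genes 4 were lower and 2 higher. Of the other markers, 2 of 7 fibroblast genes (LUM and COL1A2) and 0 of 6 keratinocyte genes lay above background. LUM, at -0.83 (adjusted p = 0.0441 in limma), was the 1 fibroblast gene that passed, where 0.956% of all genes passed. The 7 fibroblast genes went both ways, 3 lower and 4 higher, with a median of 0.16. COL1A2 was at -0.21 and FAP, below background on all arrays, at 0.97. The part of these in the results was not tested.

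**Figure D4:**
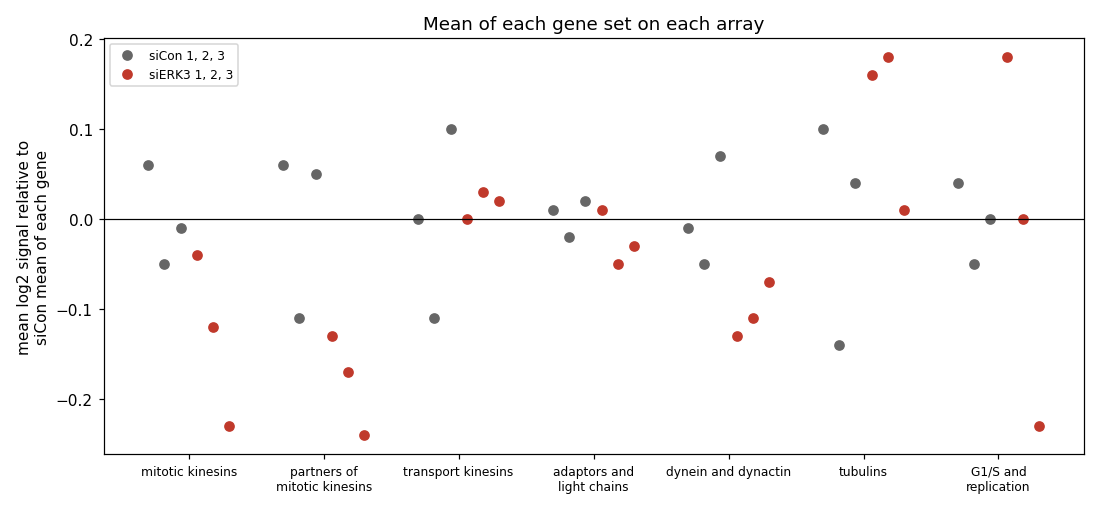
Mean log2 signal of each gene set on each array, relative to each gene's own siCon mean (vertical axis), for siCon 1 to 3 (grey) and siERK3 1 to 3 (red). Mitotic kinesins reach -0.23 and their partners -0.24 on siERK3 3, transport kinesins, members below background included, lie between 0.00 and 0.03 on the siERK3 arrays (-0.09 to -0.00 without those members), and the G1/S genes spread from -0.23 to 0.18.

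The 13 ciliary and other kinesins were mostly dim, with 9 below background on all 6 arrays and 2 (KIF21A and KIF21B) above it on at least 3. KIF21A, which stops microtubule growth at the cell cortex beside focal adhesions, was 9.35, 9.72 and 9.77 in siCon and 8.72, 9.13 and 9.11 in siERK3. Every siERK3 value was under every siCon value, with a change of -0.63 (SE 0.17, 95% interval -1.02 to -0.23, adjusted p = 0.158 in limma), the largest change in size of the family. With 1 array left out it ran from -0.76 to -0.49. Its relative KIF21B, also a regulator of microtubule growth, overlapped between groups, at 0.17 (SE 0.20).

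KIF9, a motor of motile cilia, was 6.92, 6.95 and 6.97 in siCon and 7.64, 7.54 and 7.32 in siERK3. It exceeded background on 0 siCon and 2 siERK3 arrays, so its difference is given as a bound, at least 1.05-fold higher in siERK3 if the scale is a plain log2, set against the higher of background and signal on each siCon array (fitted log2 change 0.55, adjusted p = 0.115). KIF6 was above background on 1 siCon array and on 0 siERK3 arrays. Lying below background on all 6 arrays were KIF7, the ciliary regulator of Hedgehog signalling, its relative KIF27, KIF17, KIF19 and KIF24, also known from cilia, and KIF12, KIF25, KIF26A and KIF26B. For these genes a change could not be seen at this level.

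KIF21A acts at the cortex in a complex with KANK proteins, liprins, ERC1, LL5 proteins and CLASPs, which was examined after the value of KIF21A was seen. Of 7 measured members 1 passed, PHLDB2, which encodes the LL5-beta anchor of that complex, where 0.956% of all genes passed. PHLDB2 rose by 1.12 (SE 0.19, adjusted p = 0.0357 in limma), from a mean of 10.81 to 11.93, with no overlap between groups. It passed in none of the 6 fits with 1 array left out, where its adjusted p was 0.0581 or more. The other 6 did not pass. KANK1, which binds KIF21A, was at -0.22 (SE 0.17), PPFIBP1, a liprin, at -0.12 (SE 0.13) with groups that did not overlap, ERC1 at -0.01 (SE 0.20), CLASP1 at 0.33 (SE 0.19) and CLASP2 at -0.06 (SE 0.13). KANK2 lay below background.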

How the data were processed

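RNA of A375 cells was measured on 6 Affymetrix Clariom S Pico arrays, 3 per group. The table the authors deposited holds log2 signals by probe set, with the scale read from the values (1.84 to 19.4). Software, background correction and normalization: not given in the sources used here. Because the highest values exceed what a scanner can record, the zero point of the scale is unknown, and whether it is stretched is unknown too. Depth does not apply to arrays, and their number limits the precision. The platform annotation gave 1 symbol for 17709 of 24351 probe sets, and for 20 genes with several the brightest was taken. Each kinesin has 1 probe set. The 2 groups were set against each other in R 4.3.3 by limma 3.58.1 (lmFit and eBayes without covariate or filter), with Benjamini-Hochberg adjustment over 17687 genes and a threshold of 0.05. Fits were tested on simulated data. Every kinesin is named, with values per array for those at an unadjusted p under 0.05 or among the 6 largest changes above background in the mitotic or transport class. In partner lists, called members or the 3 with the smallest p are named, and other partners were named after their values were seen. The members, roles and lists were chosen with earlier results of these data known. Alternatives were other normalizations, filters, variance models, probe-set means, a replicate block and arrays left out. Leaving out both arrays that stood apart, and the cortical list, were added after seeing the data. Protein sequences were not used here.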

Additional observations from a re-analysis of the deposited data

How the results depend on the processing

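No kinesin passed after quantile normalization, median subtraction, cyclic loess, the filter at the 30th percentile, array weights, no moderation or probe-set means, and 3 passed with the filter at the median (KIF9 kept only through siERK3) and 2 with the mean-variance trend. The count of all genes past the threshold was 169, and 365 with the filter at the 30th percentile, 581 at the median, 722 with the trend, 8 without moderation, 23 to 60 with 1 array left out and 7 without both arrays that stood apart. With the replicate number as a block it was 33, and no kinesin passed. Arrays of the same number did not deviate together (correlations of 0.05, -0.12 and -0.04), so no sign of pairing by number was seen. With 3 arrays a group this cannot exclude that the numbers pair the samples. Without moderation 10 kinesins had an unadjusted p under 0.05. The transport median of -0.06 was -0.15 among genes above the median level, and the transport mean was 0.02. With 1 array left out, the mitotic median was -0.22 to -0.13, the transport median -0.11 to -0.02 and their difference -0.19 to -0.05, and 5 to 8 kinesins had an unadjusted p under 0.05. Changes near 0 turned sign with 1 array left out for KIFC3 (-0.27 to 0.01), KIF26B (-0.07 to 0.18), KIF3C (-0.06 to 0.16), KIF13A (-0.08 to 0.02), KIF18B (-0.14 to 0.07), KIF19 (-0.02 to 0.23), KIF7 (-0.28 to 0.04), KIF27 (-0.05 to 0.26) and KIF2B (-0.21 to 0.01). Without both arrays that stood apart, KIF26B was at -0.11, KIF27 at -0.07, KIF2B at 0.05 and KIF3C at -0.08. PHLDB2 and CCNE2 no longer passed without moderation, with the block, with any 1 array left out or without both arrays that stood apart. For single genes, 575 of the values under alternatives other than leaving out 1 array kept their direction and their side of the threshold. Of the rest, 16 newly passed it, 6 no longer passed it and 4 turned sign. With 1 array left out, 316 kept both, 12 no longer passed and 14 turned sign. The cause of these moves was not tested. Scaling moved the median of all genes by less than 0.1.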

Other observations

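Other parts of the microtubule system were examined beside the kinesins. Cytoplasmic dynein, the motor that runs opposite to most kinesins, and its activator dynactin had 27 measured genes. Their median log2 change was -0.12, and 19 were below 0 (70.4%), against 50.2% of all genes. Clear below siCon lay 12, against 9.7% of all genes. All 12 were among the 22 members above background on at least 3 arrays, against 14.6% of all genes above background. No gene of the list passed in limma. At an unadjusted p under 0.05, 5 were lower and 1 higher (22.2%), against 13.5% of all genes. DYNC2LI1, a subunit of the dynein that returns cargo from cilia, was at -0.64 (SE 0.15, adjusted p = 0.0960), and DYNLT3, a dynein light chain, at -0.52 (SE 0.14, adjusted p = 0.131). Both passed with the filter at the median level (adjusted p 0.0197 and 0.0303 in limma) and with the mean-variance trend (0.0252 and 0.00682), and DYNC2LI1 also with the filter at the 30th percentile (0.0495). Neither passed with 1 array left out, and DYNLRB2 lay below background at means of 2.91 and 3.48.

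Tubulins, the building blocks of microtubules, had 20 measured genes, 14 with a change above 0 and a median of 0.08. None passed in limma over all genes, and 1, TUBA8, had an unadjusted p under 0.05 while below background (5.0%, against 13.5% of all genes). TUBB4A was at 0.40 (SE 0.18, adjusted p = 0.385) with no overlap between groups, and TUBD1, a tubulin of centrioles, at 0.49 (SE 0.25, adjusted p = 0.466). Without siCon 2, an array that stood apart, these were 0.26 and 0.21. The main subunits TUBA1B, TUBA1C and TUBB were at -0.04, -0.01 and 0.22 (SE 0.13, 0.12 and 0.14), and near-identical tubulin genes may share probe signal.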
